A study of Mus musculus with 6 samples.

Results

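Transcripts of the DNA replication machinery were followed in CD31-positive cells of mouse tumours, collected by flow sorting. The set holds 45 genes of origin licensing, the replicative helicase, the DNA polymerases, the clamp loader, nucleotide supply and chromatin assembly, chosen by gene symbol. Of these, 44 had a row among the 23930 genes of the table, and Pcna was not analysed here. The tumours were grown for 2 weeks in the flank of C57/Bl6 mice from injected LLC cells, a line of mouse Lewis lung carcinoma. In the BMP9 overexpression group (replicates 4, 5 and 6) the injected LLC cells overexpressed BMP9, a secreted bone morphogenetic protein with receptors on endothelial cells. In the control group (replicates 1, 2 and 3) they were control LLC cells, and the labels do not say how either line was made or whether it was 1 clone. All mice were of the same host strain, and all libraries came from the CD31-positive fraction. The labels name no separate animals behind the libraries. The p-values therefore reflect the spread between these 6 samples alone, and part of that spread may be technical. The series title names tumour vessel normalization by BMP9 signalling as the subject, and the design holds 1 comparison, BMP9 overexpression against control.

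Before each S phase a cell loads the MCM helicase at replication origins with the origin recognition complex (ORC), CDC6 and CDT1, while geminin keeps CDT1 in check. When S phase starts, CDC45 and the GINS complex join the helicase, and polymerases alpha, delta and epsilon copy the DNA with the help of the sliding clamp PCNA, its loader RFC and the single-strand binder RPA. Many of these genes are transcribed under the control of E2F factors late in G1, so resting cells hold little of most of these transcripts. Dividing cells of any type carry them, including activated lymphocytes, endothelial cells of growing vessels and tumour cells.

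Promoter sequences are described first because E2F sites are the best known shared element of the set. The shares below describe the set as it was chosen, and the part of such sites in the change with BMP9 overexpression was not tested. RefSeq promoters (GRCm38.p6, 250 bases before to 50 after the start) were at hand for 36 of the 45 genes. The letters searched on both strands for E2F were TTTCCCGC, TTTCGCGC, TTTGCCGC and TTTGGCGC, and a match could overlap another. A match stood in a promoter of 15 of the 36 genes (41.7%), against 4.84% of the 7294 other tested genes with a promoter and 2.6% of all 27025 genes of the promoter table. Counted per promoter, 15 of 43 member promoters held a match (34.9%), against 2.26% of all 32851. The transcribed ends of 36 of these 43 lie in a GENCODE transcript of the same gene. CCAAT was present in 63.9% of the replication genes and 42.0% of the other tested genes. For the CHR letters (TTTGAA or TTTAAA), which occur in many G2 and M phase promoters, the shares were 30.6% and 22.0%. The E-box CACGTG was found in 16.7% and 12.2%, and the SP1 letters GGGCGG in 72.2% and 69.3%. Median GC content was 57.7% in member promoters and 60.7% in those of the other tested genes.

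**Figure D1:**
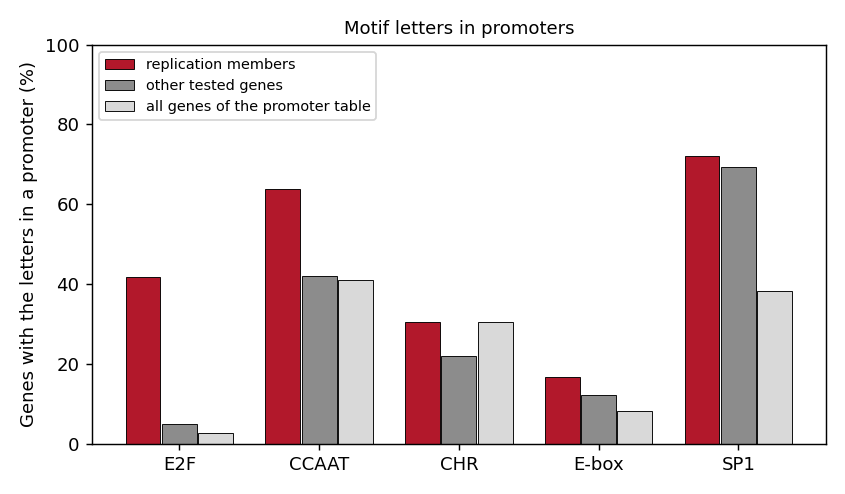
Share of genes (%, vertical axis) with each motif's letters in a promoter, for the 36 replication genes with a promoter, the 7294 other tested genes and all 27025 genes of the promoter table. The E2F letters stood in 41.7% of the replication genes and 4.84% of the other tested genes, while the SP1 letters were about equally frequent in both.

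The stretches below show the match farthest upstream in each of the 15 genes, in 30 bases of the gene's own strand (5′ to 3′), ordered from the largest to the smallest decrease in BMP9 overexpression libraries, with Orc1, which was below the filter, last. Capitals mark the E2F letters or their reverse complement.
2810417H13Rik (chr9:65890307-65890336, plus strand): gcttggagcgcGCGGGAAAgagacccattt
Lig1 (chr7:13278841-13278870, plus strand): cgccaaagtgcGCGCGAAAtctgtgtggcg
Mcm7 (chr5:138172030-138172059, minus strand): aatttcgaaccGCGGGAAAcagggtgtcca
Mcm5 (chr8:75109345-75109374, plus strand): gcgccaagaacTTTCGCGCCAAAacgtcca
Pola1 (chrX:93632275-93632304, minus strand): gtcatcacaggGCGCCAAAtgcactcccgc
Cdc6 (chr11:98908002-98908031, plus strand): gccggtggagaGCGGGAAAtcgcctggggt
Uhrf1 (chr17:56304117-56304146, plus strand): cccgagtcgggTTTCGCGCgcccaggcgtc
Mcm6 (chr1:128359797-128359826, minus strand): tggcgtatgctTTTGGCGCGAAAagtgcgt
Rfc3 (chr5:151651200-151651229, minus strand): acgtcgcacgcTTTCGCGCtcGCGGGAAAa
Pole2 (chr12:69228162-69228191, minus strand): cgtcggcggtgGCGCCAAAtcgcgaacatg
Pold1 (chr7:44548766-44548795, minus strand): cacggcggcgtatcttgtgGCGGGAAAagc
Gins3 (chr8:95633507-95633536, plus strand): gcgagtgcggcGCGGGAAAgcgagtttgaa
Mcm3 (chr1:20820275-20820304, minus strand): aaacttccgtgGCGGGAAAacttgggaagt
Cdt1 (chr8:122568035-122568064, plus strand): gggaactaccttTTTGGCGCcatggcgcaa
Orc1 (chr4:108579416-108579445, plus strand): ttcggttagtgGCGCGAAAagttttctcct
In Mcm5 and Mcm6 a pair of matches on opposite strands overlapped, and in Rfc3 a pair stood next to the start. The matches of Lig1, Pole2, Pold1, Mcm3 and Cdt1 lay within 50 bases after the annotated start. Of the 5 genes with a promoter and a row that were not called, 2 (Cdt1 and Orc1) held a match, against 13 of the 30 called lower (43.3%). Orc1 and Fen1, among those 5, were below the filter and so not tested.
Most of the 30 genes called lower that had a promoter held no match, among them Mcm10 (-3.52) and Rrm2 (-3.06), so lack of the letters was not particular to genes that missed the threshold. The 100 bases before the start of a pair of ORC genes that did not pass the test, which also held no such letters, are shown next.
Orc6 (chr8:85299532-85299631, plus strand): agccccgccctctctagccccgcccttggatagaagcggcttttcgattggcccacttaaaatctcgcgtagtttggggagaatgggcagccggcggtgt
Orc2 (chr1:58505110-58505209, minus strand): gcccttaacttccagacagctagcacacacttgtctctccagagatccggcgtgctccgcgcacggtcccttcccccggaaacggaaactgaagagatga

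Values are RPM, the reads of a gene's amplicon scaled to the library total. The panel reads 1 short segment per gene, so levels are compared between libraries and not between genes. BMP9 overexpression libraries held between 1974510 and 28380957 reads and control libraries between 1321762 and 4583428 reads. A level of 3 reads stood at 0.106 to 1.52 RPM in BMP9 overexpression libraries and at 0.655 to 2.27 RPM in control libraries. These floors take in only the error of counting. Across all 9460 tested genes the median log2 fold change was -0.24, and 1200 genes were called higher and 2130 lower (36% of calls higher). With TMM scaling 1629 were higher and 1383 lower (54.1% higher), and the median was 0.00. Fold changes below are BMP9 overexpression minus control of log2(RPM + 1), a scale on which low genes change less, and are to be read relative to the shift of -0.24. A gene was called at an adjusted p under 0.05 (limma, Benjamini-Hochberg over all tested genes).

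Replication genes were lower in BMP9 overexpression libraries, in nearly every part of the machinery. For 38 of the 44 genes each BMP9 overexpression library lay below each control library, and in none was the order the other way. That order held for 19.4% of all 18274 genes with reads. The filter (5 RPM or more in 3 or more libraries) passed 41 of them, of which 36 fell and none rose, where 22.5% of all tested genes were called lower, 12.7% higher and 35.2% in either direction. Of these 41, 37 were ordered BMP9 overexpression below control in all libraries and 0 above, where 31.2% of all tested genes lay below and 16.8% above. Of the 41, 7 (Cdc6, Mcm10, Cdc45, Pold2, Pole2, Rfc4 and Chaf1a) reached 5 RPM in control libraries alone, so they could enter the test only by being higher there. With no filter, 34 of 44 fell, 33 of the 36 and Orc1, against 8.27% of all genes. At a mean of at least 20 RPM over all 6 libraries, 26 of 29 fell, against 21.7%. The median log2 fold change of the 41 was -2.04 as deposited, -1.82 with TMM scaling and -1.87 within the earlier of 2 run time stamps.

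Sizes differed widely among the genes. A decrease of at least 1 on the log2 scale was called for 34 genes (18.1% of all tested genes), of at least 2 for 22 (4.31% of all tested genes) and of at least 3 for 4 (0.92%), namely 2810417H13Rik, Mcm10, Lig1 and Rrm2. The 5 tested genes that did not pass were Cdt1, Orc2, Gins1, Prim2 and Orc6. By role, the median was -0.81 for the 5 tested licensing genes and -1.42 for the 4 tested genes of CDC45 and GINS. It was -1.80 for the 8 clamp, clamp loader and lagging strand genes and -2.15 for the 8 polymerase and primase genes. The 4 chromatin assembly and fork protection genes had a median of -2.27, the 5 nucleotide supply genes -2.29 and the 7 MCM genes -2.48. These medians are descriptions of small lists and were not tested against each other.

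**Figure D2:**
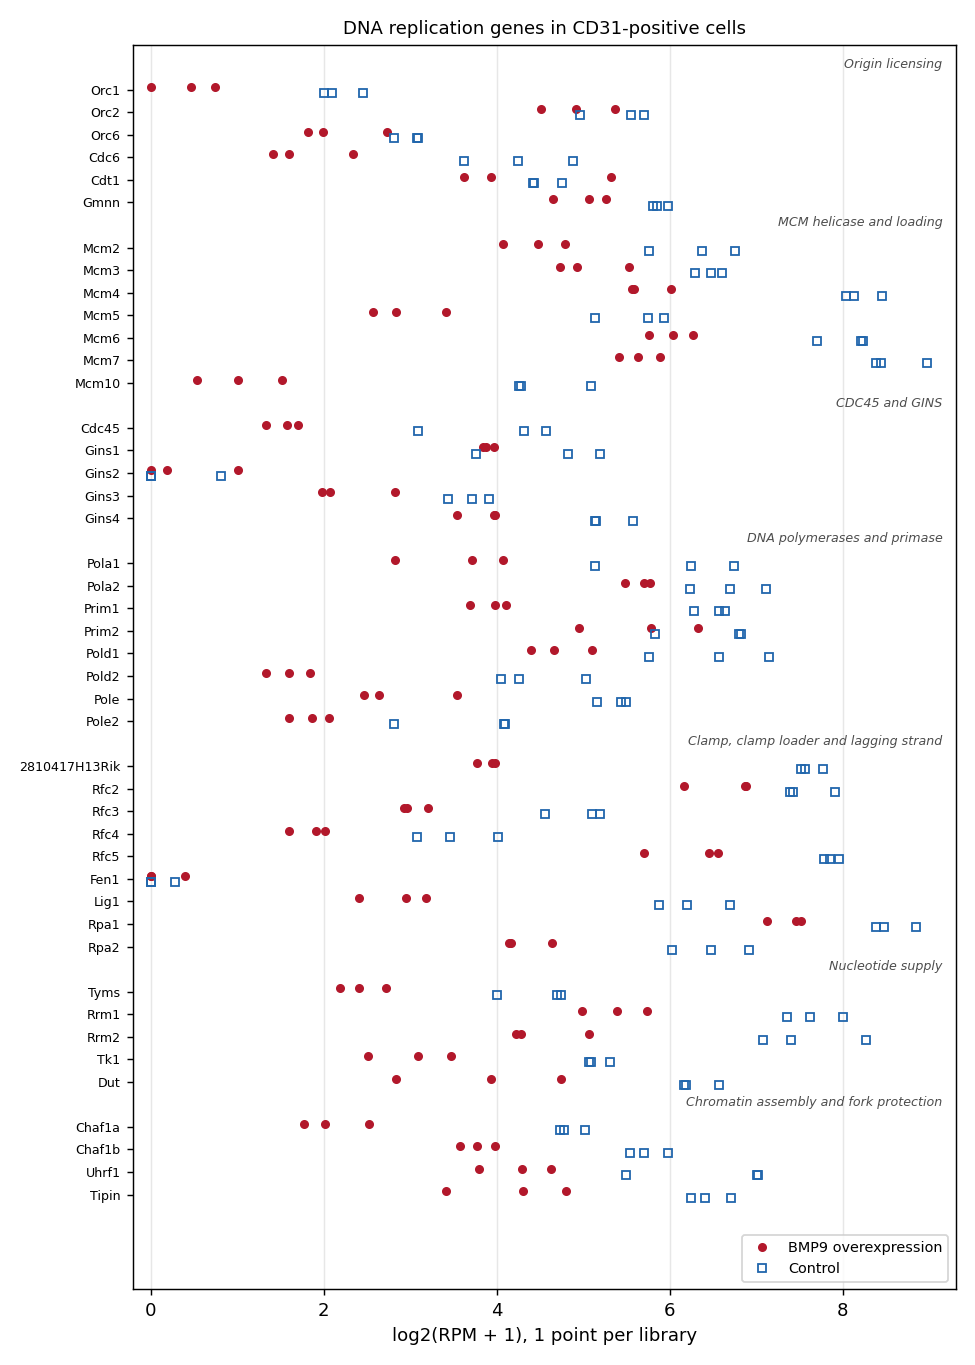
Level of each of the 44 replication genes, as log2(RPM + 1) on the horizontal axis, with 1 point per library (filled circles BMP9 overexpression, open squares control), grouped by role. The BMP9 overexpression points lie left of all control points in 38 genes, and Orc2, Cdt1, Gins1, Gins2, Prim2 and Fen1 are the 6 with overlap.

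Among the roles of the set, origin licensing had the fewest changes. Its ORC members were Orc1, Orc2 and Orc6, while Orc3, outside the set, fell (-1.755, adjusted p = 0.0013). Cdc6 (chromosome 11, 98907801 to 98923940), the ATPase that loads MCM on ORC-bound origins, had 4.05, 2.04 and 1.66 RPM in BMP9 overexpression replicates 4, 5 and 6, against 28.6, 11.3 and 18 RPM in control replicates 1, 2 and 3. It fell by 2.47 (SE 0.42, limma adjusted p = 0.000395), and the groups did not overlap. Orc1, the ORC subunit whose level cycles, had 0, 0.68 and 0.388 RPM in BMP9 overexpression libraries, against 3.27, 3.03 and 4.5 RPM in control libraries. It was below the filter, and only the fit with no filter tested it, where it fell by 1.78 (SE 0.29, adjusted p = 0.0146). Its reads numbered 0, 3 and 11 against 15, 4 and 9.

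Orc2, a core ORC subunit, had 21.8, 40.1 and 29.2 RPM in BMP9 overexpression libraries, against 51.1, 30.3 and 46.0 RPM in control libraries. The groups overlapped, and the log2 fold change of -0.48 (95% interval -1.18 to 0.22) did not pass (adjusted p = 0.273). Orc6, another ORC subunit, had 2.53, 5.67 and 2.995 RPM against 7.42, 6.05 and 7.501 RPM in control libraries. Its groups did not overlap, but -0.81 (SE 0.39) did not pass (adjusted p = 0.119).

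Cdt1 (chromosome 8, 122568015 to 122573554), the licensing factor that brings MCM to origins, had 39.0, 14.3 and 11.3 RPM in BMP9 overexpression replicates 4, 5 and 6, against 20.5, 20.4 and 26 RPM in control libraries. Replicate 4 was the highest library of all and replicates 5 and 6 the lowest. The log2 fold change of -0.24 (SE 0.41, adjusted p = 0.672) had no stable sign, with 0.79 within the earlier run time stamp, which holds replicate 4 alone, and 0.13 with edgeR on recovered reads. Gmnn, geminin, had 37.5, 32.4 and 24.1 RPM against 56.7, 62.0 and 55.0 RPM in control libraries and fell by 0.89 (SE 0.29, adjusted p = 0.0268). Its call was lost with TMM scaling (-0.64, adjusted p = 0.102), after quantile normalization (-0.68), with edgeR and DESeq2, within the earlier stamp or with the stamp as a covariate (-0.61 in both), without BMP9 overexpression replicate 6 (-0.71) and without each of control replicates 1 (-0.90), 2 (-0.84) and 3 (-0.92). The log2 ratio of Cdt1 to Gmnn within a library averaged -0.70 ± 0.66 in BMP9 overexpression and -1.34 ± 0.26 in control libraries (SD, n = 3 each; exact two-sided permutation p = 0.2).

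All 6 subunits of the MCM2 to MCM7 ring, which unwinds DNA ahead of the fork, fell, and no subunit's groups overlapped. Of all tested genes, 22.5% were called lower, and in 31.2% each BMP9 overexpression library lay below each control library. Mcm7 (chromosome 5, 138164583 to 138172422) had 48.6, 58.1 and 41.7 RPM in BMP9 overexpression libraries, against 500, 345 and 333 RPM in control libraries, and fell by 2.95 (SE 0.27, adjusted p = 4.56e-06). Mcm5 had 9.62, 6.12 and 4.93 RPM against 52.8, 34.0 and 60.0 RPM in control libraries and fell by 2.67 (SE 0.35). Mcm4 had 47.1, 46.3 and 63.6 RPM against 350, 260 and 278 RPM in control libraries and fell by 2.48 (SE 0.27). In each of these subunits the lowest control library stood far above the highest BMP9 overexpression library.

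Mcm6 had 76.0, 64.6 and 53.1 RPM in BMP9 overexpression libraries, against 295, 207 and 300.03 RPM in control libraries, and fell by 2.03 (SE 0.27). Mcm2, with 21.3, 26.5 and 15.8 RPM against 81.8, 53.0 and 107 RPM in control libraries, fell by 1.85 (SE 0.33). Mcm3 showed the smallest decrease of the ring, with 45.1, 29.5 and 25.5 RPM against 77.0, 87.8 and 96.0 RPM in control libraries (-1.39, SE 0.30, adjusted p = 0.00217). Within the earlier stamp its value was -0.93 (adjusted p = 0.0615), as with the stamp as a covariate (adjusted p = 0.0562). Mcm10, which is not a ring subunit but helps activate the loaded helicase, had 1.01, 0.454 and 1.87 RPM against 33.2, 18.2 and 18.5 RPM in control libraries. It fell by 3.52 (SE 0.41, adjusted p = 1.88e-05), and its BMP9 overexpression values rest on 2, 2 and 53 reads.

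The share of each subunit in the reads of the ring was also followed, without a test, and such shares move together because they add up to 1 sum. Summed RPM of Mcm2 to Mcm7 was 248, 231 and 205 in BMP9 overexpression libraries, against 1355, 987 and 1174 in control libraries. Of that sum, Mcm7 made up 19.6%, 25.1% and 20.4% in BMP9 overexpression libraries and 36.9%, 34.9% and 28.4% in control libraries. Mcm3 made up 18.2%, 12.8% and 12.5% in BMP9 overexpression libraries and 5.68%, 8.89% and 8.18% in control libraries. The Mcm6 share came without overlap by a narrow margin, at 30.7%, 28.0% and 25.9% against 21.7%, 21% and 25.6% in control libraries. Shares of Mcm2, Mcm4 and Mcm5 overlapped between the groups. Amplicon yields differ between genes, so these shares follow each subunit from library to library and give no stoichiometry.

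**Figure D3:**
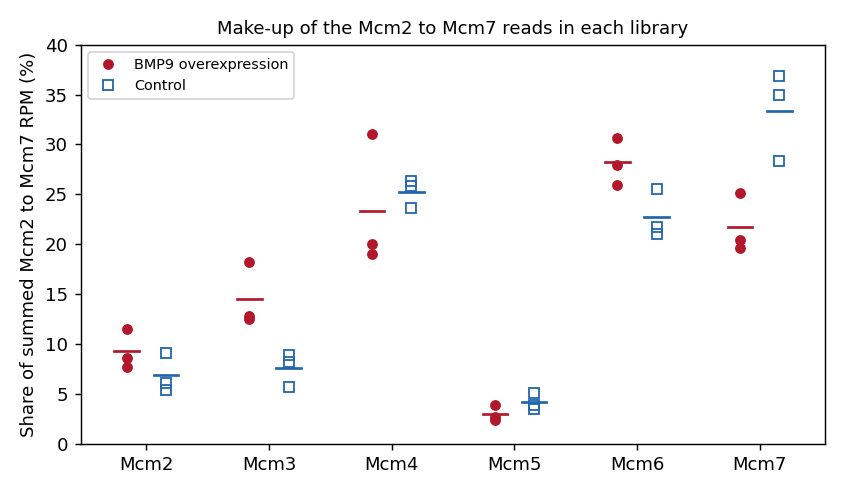
Share of each subunit in the summed RPM of Mcm2 to Mcm7 (%, vertical axis) in each library, with a line at the group mean (circles BMP9 overexpression, squares control, n = 3 each). The Mcm7 share averaged 21.7% in BMP9 overexpression and 33.4% in control libraries, and the Mcm3 share 14.5% and 7.58%.

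CDC45 and the GINS subunits, which turn the loaded ring into a working helicase, gave a mixed picture. Cdc45 (chromosome 16, 18780447 to 18811987) had 1.52, 2.27 and 1.97 RPM in BMP9 overexpression libraries, against 19.0, 22.7 and 7.501 RPM in control libraries, and fell by 2.45 (SE 0.43, adjusted p = 0.000504). Gins4 fell by 1.45 (SE 0.31, adjusted p = 0.00246). Gins3 fell by 1.39 (SE 0.38, adjusted p = 0.0102), a call lost with no filter (adjusted p = 0.0597), within the earlier stamp or with the stamp as a covariate (-0.86 in both) and without BMP9 overexpression replicate 6 (-1.28, adjusted p = 0.0523).

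Gins1 had 14.7, 13.4 and 13.6 RPM in BMP9 overexpression libraries, against 35.6, 27.2 and 12.5 RPM in control libraries. Control replicate 3 was as low as the BMP9 overexpression libraries, and -0.69 (SE 0.38) did not pass (adjusted p = 0.168). Without that library it was -1.11 (adjusted p = 0.0397). The amplicon of Gins2 gave between 0 and 4 reads per library, too few for any statement on that gene.

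Of the polymerase and primase genes 7 of 8 fell, where 22.5% of all tested genes were called lower. Among them Pold2 and Pole2 reached 5 RPM in control libraries alone. Pold2 (chromosome 11, 5872180 to 5878292), the accessory subunit of polymerase delta, had 1.52, 2.04 and 2.57 RPM in BMP9 overexpression libraries, against 18.1, 31.8 and 15.5 RPM in control libraries. It fell by 2.85 (SE 0.38, adjusted p = 6.02e-05), and Pold1, the catalytic subunit, fell by 1.77 (SE 0.36). Prim1, the catalytic primase subunit, had 16.2, 14.7 and 11.9 RPM against 93.8, 98.4 and 76.5 RPM in control libraries and fell by 2.57 (SE 0.29). Its partner Prim2 had 29.9, 79.1 and 54.2 RPM against 112, 56.0 and 111 RPM in control libraries.

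The Prim2 groups overlapped, since control replicate 2 was below BMP9 overexpression replicate 5. Its log2 fold change of -0.80 (95% interval -1.59 to -0.01) did not pass (adjusted p = 0.107). The value was -1.54 within the earlier stamp (adjusted p = 0.0215), -1.12 without control replicate 2 (adjusted p = 0.0427) and -1.12 without BMP9 overexpression replicate 5 (adjusted p = 0.0342). Pola1, the catalytic subunit of polymerase alpha, fell by 2.50 (SE 0.42), and Pola2, its B subunit, fell by 1.03 (SE 0.29, adjusted p = 0.0133). The Pola2 call was lost without control replicate 1 (adjusted p = 0.0511) or 3 (adjusted p = 0.0851). Pole, the catalytic subunit of polymerase epsilon, fell by 2.48 (SE 0.36), and Pole2, its B subunit, fell by 1.83 (SE 0.42). The Pole2 call was lost with no filter (adjusted p = 0.0503).

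At the clamp and on the lagging strand all 8 tested genes fell, where 22.5% of all tested genes were called lower. Among them Rfc4 reached 5 RPM in control libraries alone. The largest decrease of the whole set was that of 2810417H13Rik (chromosome 9, 65890237 to 65903266; RefSeq symbol Pclaf), the PCNA-associated factor. It had 12.7, 14.7 and 14.4 RPM in BMP9 overexpression libraries, against 189, 216 and 183 RPM in control libraries. Spread within groups was small (mean 13.9 ± 1.11 against 196 ± 18.1 RPM, SD, n = 3 each), and the log2 fold change was -3.72 (SE 0.27, adjusted p = 1.67e-06). Among all 9460 tested genes it ranked 14 by size of decrease, Mcm10 25 and Lig1 32.

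Lig1, the ligase that seals Okazaki fragments, had 8.10, 4.31 and 6.73 RPM in BMP9 overexpression libraries, against 103, 72.6 and 57.5 RPM in control libraries, and fell by 3.41 (SE 0.34, adjusted p = 8.02e-06). Of the clamp loader subunits, Rfc3 (-1.92, SE 0.33), Rfc4 (-1.67, SE 0.39) and Rfc5 (-1.62, SE 0.28) fell. The Rfc4 call was lost within the earlier stamp (-1.50, adjusted p = 0.0583). Rfc2, the remaining small subunit measured, had 117, 116 and 70.6 RPM against 167, 170 and 239 RPM in control libraries. It fell by 0.93 (SE 0.29, adjusted p = 0.0202), and the call was lost with no filter (adjusted p = 0.0681), with TMM scaling (-0.68), with edgeR and DESeq2, within the earlier stamp or with the stamp as a covariate (-0.69 in both), and without control replicate 3 (-0.77) or BMP9 overexpression replicate 6 (-0.70).

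The single-strand binding proteins also differed in size of change. Rpa2 fell by 2.16 (SE 0.31), and Rpa1 fell by 1.20 (SE 0.26, adjusted p = 0.00241), with 175, 182 and 138 RPM in BMP9 overexpression libraries, against 334, 356 and 458 RPM in control libraries. Fen1, the flap endonuclease of Okazaki fragment processing, had between 0 and 9 reads in any library and gives no information here. Exons of Mcm7 and Lig1 share bases with protein-coding genes on the opposite strand, as do those of Cdc45, Chaf1a, Fen1, Gins2, Orc2, Orc6, Rfc2, Rfc4, Rfc5 and Tk1. Pole2 shares exon bases with Gm49384, a protein-coding gene on its own strand. Where each amplicon lies in its gene is not known here, and the sources used here do not state whether strand was kept, so reads of such partners cannot be told apart, and those of Pole2 and Gm49384 could not be even with strand kept.

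Nucleotide supply fell as a whole, with all 5 genes at -2.04 or lower, where 4.31% of all tested genes were called at -2 or lower. Rrm2 (chromosome 12, 24708241 to 24714146), the small subunit of ribonucleotide reductase made in S phase, had 32.4, 18.4 and 17.7 RPM in BMP9 overexpression libraries, against 167, 308 and 134 RPM in control libraries. It fell by 3.06 (SE 0.35, adjusted p = 1.78e-05). Rrm1, the large subunit, fell by 2.29 (SE 0.29), with 52.2, 30.6 and 41.0 RPM against 255, 163 and 196 RPM in control libraries. Dut, the dUTPase that keeps uracil out of DNA, fell by 2.47 (SE 0.41), and Tk1, the thymidine kinase of S phase, fell by 2.13 (SE 0.35).

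Tyms, thymidylate synthase, had 5.57, 4.31 and 3.56 RPM in BMP9 overexpression libraries, against 24.9, 25.7 and 15.0 RPM in control libraries (-2.04, SE 0.36, adjusted p = 0.000574). Rrm2b, the reductase subunit of cells outside S phase, stayed below the filter, with 2.53, 5.90 and 3.81 RPM against 5.67, 3.78 and 3.50 RPM in control libraries. Those Rrm2b groups overlapped. The log2 ratio of Rrm2 to Rrm2b averaged 2.23 ± 0.91 in BMP9 overexpression and 5.19 ± 0.72 in control libraries (SD, n = 3 each), a difference of -2.96. The two-sided exact permutation test gave p = 0.1, its minimum for 3 against 3 libraries. Samhd1, which degrades deoxynucleotides, fell by 0.81 (SE 0.26, adjusted p = 0.0241). Tk2 (-0.85) and Dguok (-0.71), kinases of the mitochondrial salvage route, did not pass (adjusted p = 0.0913 and 0.0641).

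Of the 5 ratios within a library that were compared, 4 did not overlap between groups. The other ratios without overlap were Rrm2 to Rrm1 (difference -0.77), Mcm2 to Orc2 (-1.37) and Pola1 to Polb (-2.43), each with p = 0.1 in the same exact permutation test and 0.125 after Benjamini-Hochberg adjustment over the 5. Rrm2 to Rrm1 came without overlap by a narrow margin, at -0.67 in BMP9 overexpression replicate 4 against -0.604 in control replicate 1. Control replicate 2 stood apart at 0.917. Each ratio was taken of RPM + 1, so for low genes such as Rrm2b it also depends on the added 1 and on the scaling of the library. With 0.5 or 5 added in its place, the 5 differences kept their sign and their p. Polb, the base excision repair polymerase, had 18.7, 32.0 and 17.3 RPM in BMP9 overexpression libraries, against 21.6, 23.5 and 24.0 RPM in control libraries (-0.07, adjusted p = 0.887).

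Chromatin assembly and fork protection genes all fell, where 22.5% of all tested genes were called lower. Among them Chaf1a reached 5 RPM in control libraries alone. Chaf1a, the large subunit of the histone chaperone CAF-1, had 3.04, 4.76 and 2.43 RPM in BMP9 overexpression libraries, against 31.4, 26.5 and 25.5 RPM in control libraries, and fell by 2.74 (SE 0.35, adjusted p = 4.12e-05). Chaf1b, its partner, had 12.7, 14.7 and 10.9 RPM against 51.1, 62.0 and 45.5 RPM in control libraries and fell by 1.97 (SE 0.30). Uhrf1, which guides maintenance methylation to new DNA, fell by 2.26 (SE 0.40), and Tipin, of the fork protection complex, fell by 2.28 (SE 0.35).

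**Figure D4:**
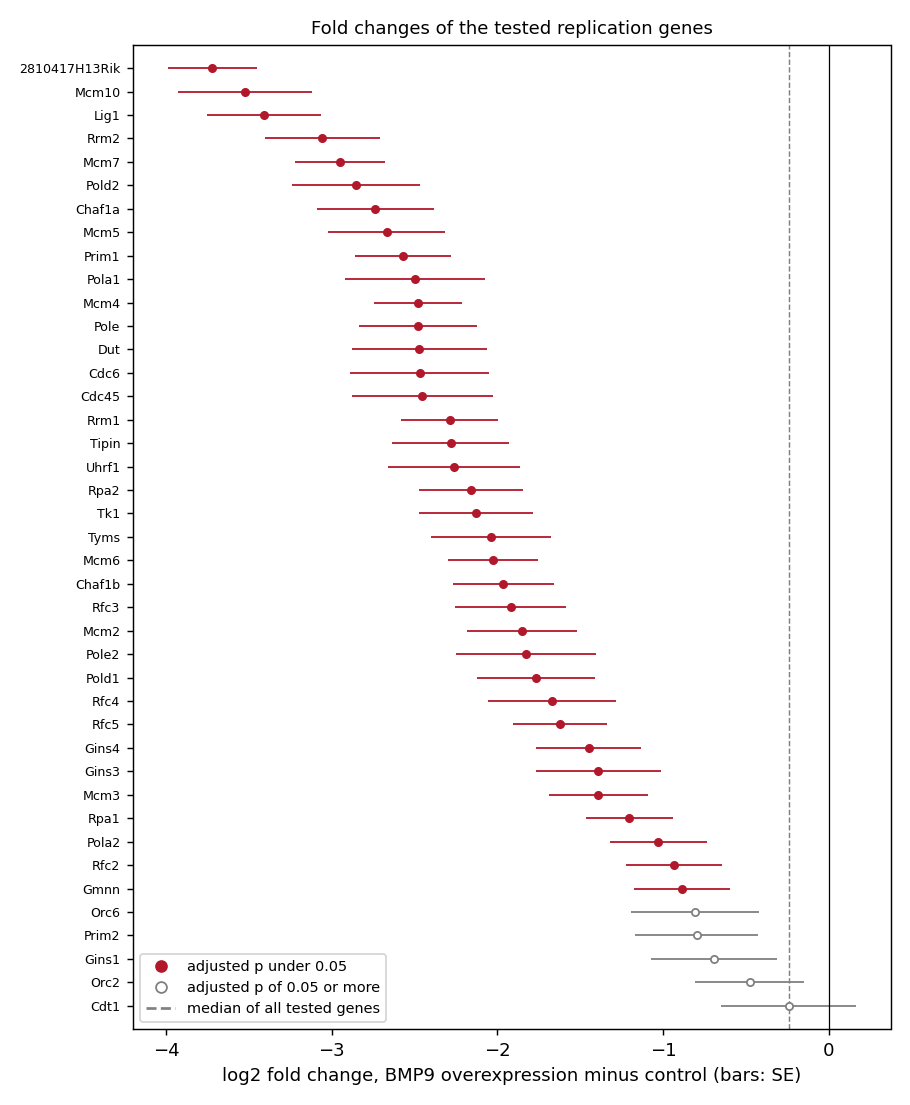
Log2 fold change of each of the 41 tested replication genes (horizontal axis, BMP9 overexpression minus control, bars SE), from the largest decrease at the top. Filled points passed an adjusted p of 0.05, the 5 open points at the bottom did not, and the dashed line marks the median of all tested genes at -0.24.

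Replication genes outside the set were also counted. Of 45 listed, 44 had a row and 42 were tested, of which 32 fell and none rose (median -1.42), where 22.5% of all tested genes were called lower. Clspn, Dscc1, Chtf18, Mms22l, Mcm8 and Recql4 reached 5 RPM in control libraries alone, so they could enter the test only by being higher there. The smallest p-values were those of Timeless, the partner of Tipin (-2.88), Asf1b, a histone chaperone (-2.62), and Clspn, the checkpoint mediator claspin (-3.03), with the FACT subunit Ssrp1 (-2.09). Those that did not pass were Orc4 (-0.51), Orc5 (-0.88), Mcmbp (-0.01), Pold3 (-0.11), Dna2 (-0.21), Rnaseh2a (-0.26), Dck (-0.43), Tonsl (-1.07), Top1 (0.20) and Mcm9 (-0.23). Unlike Orc4 and Orc5, the ORC subunit Orc3 fell (-1.755, SE 0.3474, adjusted p = 0.0013), and its groups did not overlap. Topoisomerase Top1 and the MCM-binding protein Mcmbp are also used outside S phase, and whether this bears on their values was not tested.

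The samples differed in cell type markers along the same axis. Markers of cycling cells, such as Mki67 and Top2a, fell in 7 of 7 and summed to 108 to 139 RPM in BMP9 overexpression libraries and 816 to 1162 RPM in control libraries. T and NK cell markers fell in 13 of 13 and summed to 704 to 1257 RPM in BMP9 overexpression libraries and 4867 to 5139 RPM in control libraries. Macrophage and monocyte markers rose in 12 of 12 tested (of 13 listed) and summed to 18020 to 24189 RPM and 4511 to 7106 RPM. Of all tested genes, 22.5% were called lower and 12.7% higher. Among these markers Bub1 reached 5 RPM in control libraries alone and Cd163 in BMP9 overexpression libraries alone, so each could be tested only by being higher there. The 18 pan-endothelial markers summed to 356 to 474 RPM in BMP9 overexpression libraries and 433 to 631 RPM in control libraries, most of it from Pecam1, the gene of the sort marker. Of these 18, 13 were below the filter, among them Tek, Cldn5, Emcn and Sox17, and none was at 0 in all 6 libraries. Of the 5 tested, the VEGF receptor genes moved in opposite directions: Flt1 rose by 1.83 (limma adjusted p = 0.00584), and Kdr fell by 1.32 (limma adjusted p = 0.025). Kdr, too, reached 5 RPM in control libraries alone. Pecam1 (-0.56), Cdh5 (-0.56) and Eng (0.68) did not pass. Each BMP9 overexpression library still lay below each control library for Pecam1 and above each for Eng. Among all tested genes 31.2% lay below in this way and 16.8% above. The labelled CD31-positive population therefore carried abundant leukocyte transcripts, and which cells gave the replication reads was not tested. The 7 epithelial markers summed to 185 to 284 RPM in BMP9 overexpression libraries and 169 to 192 RPM in control libraries. Most of this was Cdh1, E-cadherin, which averaged 220 ± 47.4 RPM in BMP9 overexpression and 171 ± 15.1 RPM in control libraries (SD, n = 3 each) and did not pass (limma adjusted p = 0.32). Krt18, a keratin of simple epithelia, rose by 1.38 (limma adjusted p = 0.0152). It reached 5 RPM in BMP9 overexpression libraries alone, so it could be tested only by being higher there. Epcam went the other way and did not pass (-0.915, limma adjusted p = 0.0847), though each BMP9 overexpression library lay below each control library. It reached 5 RPM in control libraries alone. Another 4 were below the filter, of which Nkx2-1 was at 0 in all libraries.

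Summed RPM of the 44 replication genes was 1101, 1127 and 942 in BMP9 overexpression libraries, against 4363, 3618 and 3995 in control libraries. As a percentage of the summed T and NK markers it was 87.6%, 107% and 134% in BMP9 overexpression libraries and 84.9%, 72.2% and 82.1% in control libraries. Set against the cycling markers it was 793%, 1046% and 844% in BMP9 overexpression libraries and 375%, 371% and 490% in control libraries, without overlap. Set against the macrophage and monocyte markers it was 5.4%, 6.3% and 3.9% in BMP9 overexpression libraries and 67.4%, 80.2% and 56.2% in control libraries, also without overlap. The replication sum was lower by a factor of 3.78 on the linear scale. Its quotients to T and NK markers and to cycling markers were higher in each BMP9 overexpression library than in any control library. The quotient to macrophage and monocyte markers was lower in each. In bulk samples, fewer cells of a type and less RNA per cell cannot be told apart. The part of these marker changes in the replication result was not tested.

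**Figure D5:**
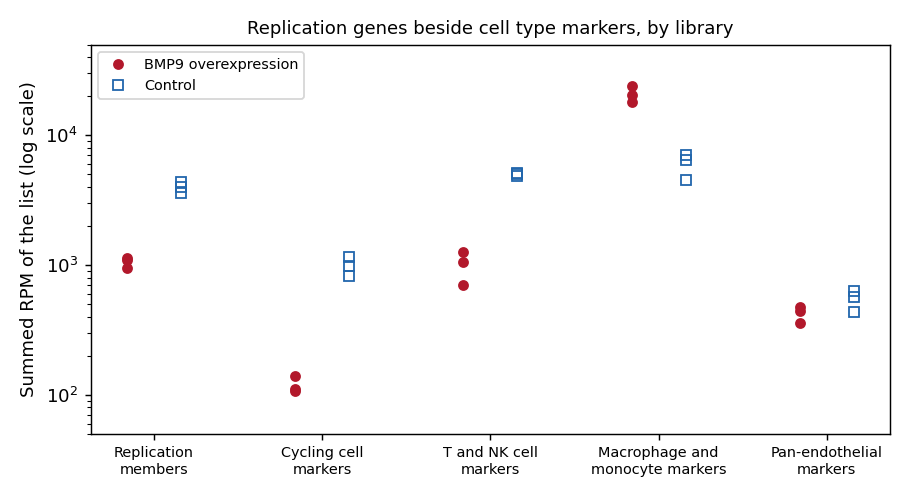
Summed RPM (logarithmic vertical axis) of the replication genes and of 4 marker lists in each library (circles BMP9 overexpression, squares control). Replication genes, cycling cell markers and T and NK cell markers were lower, and macrophage and monocyte markers higher, in all 3 BMP9 overexpression libraries than in any control library.

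BMP9 overexpression replicate 4 shared its run time stamp with the 3 control libraries, and replicates 5 and 6 a later one without controls. Among libraries of the earlier stamp, 32 of the 41 genes were called lower, against 17.6% of all tested genes, with replicate 4 as the only BMP9 overexpression library and assumed to vary like the controls. The genes with the largest decreases over all libraries had -3.85 for 2810417H13Rik, -3.54 for Mcm10, -3.07 for Lig1 and -2.52 for Rrm2 there. Sizes of other members moved in both directions. Decreases were smaller there for Dut (-1.56, against -2.47 over all libraries) and Pole (-1.82, against -2.48). They were larger for Pola1 (-3.21, against -2.50) and Tipin (-3.04, against -2.28). Library medians of log2(RPM + 1) over the 41 genes were 3.97, 3.98 and 3.87 in BMP9 overexpression replicates 4, 5 and 6, against 6.17, 5.75 and 5.93 in control replicates 1, 2 and 3.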

How the data were processed

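CD31-positive cells were sorted from dissociated tumours and libraries made with the Ion AmpliSeq mouse transcriptome panel, per the labels' protocols. The authors deposited RPM (reads scaled to the library total, as the values show). The submitters' processing notes name mm10, and aligner, counter and filters were not given in the sources used here. Whole reads were recovered for 100% of nonzero values within 0.05 reads. Reads are PCR copies without molecular identifiers.

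Genes reaching 5 RPM in 3 or more libraries were tested on log2(RPM + 1) over all 6 libraries with the trend method of limma 3.58.1 in R 4.3.3 and with Benjamini-Hochberg adjustment. Every adjusted p is from this test unless named otherwise. On recovered reads edgeR 4.0.16 (quasi-likelihood) called 3114 genes and DESeq2 1.42.0 called 3317. The procedure was also run on simulated reads, drawn with the same dispersion (spread beyond counting error) for all genes and no effect of the run time stamp. Those settings are simpler than real libraries, so that run is no evidence for the calls reported here. Alternatives were pseudocounts, filters, TMM or quantile scaling, library weights, a fit without trend, the time stamp of the run and leaving out each library.

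Members and lists were chosen with earlier results of these data known. Described in full, by rule, were the largest and smallest change of each role, Mcm2 to Mcm7 and members that missed the threshold. Other genes named are members or stand in the fixed lists. The text shows the upstream-most E2F match of all genes with one, and a pair without, a choice made after seeing the promoters. Gene coordinates are GENCODE M21 (mm10), promoters RefSeq (GRCm38.p6). Neutrophil markers rose in 2 of 2 tested (of 8 listed) and B cell markers in 0 of 4, with 0 lower, where 12.7% of all tested genes were called higher. Of the neutrophil markers S100a8 reached 5 RPM in BMP9 overexpression libraries alone.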

Additional observations from a re-analysis of the deposited data

How the results depend on the processing

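Over 18 alternatives, 29 of the 41 tested replication genes kept their direction and their side of the threshold in each alternative that tested them. The filter at a mean of at least 20 RPM did not test all 41, and it left out low genes such as Cdc6, Mcm10, Cdc45, Pold2 and Chaf1a. The number called lower was 36 as reported, 26 of 29 at a mean of at least 20 RPM, 34 with TMM, edgeR or DESeq2, 41 with array weights and 33 to 37 when 1 library was left out. None was called higher in any of them. The median log2 fold change of -2.04 was -1.68 with a pseudocount of 5, -1.82 with TMM, -1.84 after quantile normalization, -2.28 with array weights, and -1.87 with the stamp of the run as a covariate and within the earlier stamp, both of which compare BMP9 overexpression replicate 4 alone with the controls.

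Cdt1 reversed from -0.24 to 0.065 after quantile normalization, 0.79 with the stamp as a covariate or the earlier stamp alone, 0.094 without BMP9 overexpression replicate 6 (-0.758 to 0.094 over the libraries left out), and 0.13 with edgeR and with DESeq2, but was -0.80 (adjusted p = 0.0157) with array weights. The cause was not tested. The list of other replication genes had 20 called lower, in place of 32, at a mean of at least 20 RPM, where fewer genes are tested. Over all genes 2130 were called lower, against 1383 with TMM, 3351 with array weights and 1367 to 2312 when 1 library was left out (1367 without control replicate 1).

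No paired analysis was possible because the groups share no replicate numbers. Few reads limit Orc1, Gins2 and Fen1. Even the deepest library, BMP9 overexpression replicate 6, gave only 4 reads for Gins2 and 9 for Fen1. In BMP9 overexpression replicate 4 Mcm10, Cdc45 and Pold2 rest on 2 to 3 reads.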

Other observations

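DNA polymerases and helpers that work outside bulk replication were counted as well. Of 9 tested translesion and repair polymerases and helpers 5 fell and none rose (median -1.03), where 22.5% of all tested genes were called lower. Polq, the polymerase of end joining, fell by 2.25 (SE 0.47), with 1.52, 6.80 and 2.68 RPM in BMP9 overexpression libraries, against 31.9, 11.3 and 18 RPM in control libraries. Poll, of end joining and gap filling, fell by 1.78 (SE 0.38), Polh, which copies past ultraviolet lesions, fell by 1.44 (SE 0.29), and Rev3l, the catalytic subunit of polymerase zeta, fell by 1.44 (SE 0.32). Poli fell by 1.03 (SE 0.34). Rev1 (-0.30), Polk (-0.42), Mad2l2 (-0.61) and Polb (-0.07) did not pass (limma adjusted p from 0.163 to 0.887).

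Mitochondrial DNA replication proceeds outside S phase as well. Of 6 tested genes of it, 1 fell, Tfam, the packaging and transcription factor of mitochondrial DNA (-0.97, SE 0.31, limma adjusted p = 0.0236), and none rose (median -0.51), a count near the 22.5% of all tested genes called lower. Polg, the mitochondrial polymerase, was at 62.7 ± 23.2 RPM in BMP9 overexpression and 77.5 ± 0.455 RPM in control libraries (SD, n = 3 each; -0.36, limma adjusted p = 0.367). Ssbp1, the mitochondrial single-strand binding protein, was at 176 ± 46.6 and 180 ± 16.9 RPM (-0.07, limma adjusted p = 0.871). The difference between these lists and the replication genes was not tested.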
